A study of Rattus norvegicus with 8 samples.

Results

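The genes described here are 10 members of the tumour necrosis factor (TNF) superfamily in rat peritoneal macrophages, 5 ligands and 5 receptors. They were chosen by gene symbol from the 23487 genes of the deposited table. The ligands are Tnf, Tnfsf12, Tnfsf13, Tnfsf13b and Tnfsf14, and the receptors are Tnfrsf1a, Tnfrsf1b, Tnfrsf11a, Tnfrsf21 and Fas. All 10 passed the filter on low counts that left 12124 genes for testing. Each symbol had a single row in the table.

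Macrophages were sorted from the peritoneal cavity of female Wistar rats, 8 weeks old, that had received 2 mg of carbon nanotubes into the peritoneum 15 days earlier. One group of 4 rats (numbered 3, 5, 10 and 11) was given CNT-7, a needle-like multi-walled nanotube (MWCNT-XNRI-7) that causes mesothelioma in rats. The other 4 rats (1, 2, 12 and 13) were given CNT-T, a tangled nanotube that does not. Both particles were suspended in phosphate-buffered saline with bovine serum albumin, and the sort took cells with high CD11b/c and dim His48 staining. Untreated rats were not analysed here, so each difference is one between the particles and not a departure from the resting cavity. The data are bulk RNA-seq, in which fewer cells of a type and less RNA per cell cannot be told apart.

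TNF superfamily ligands are made as membrane proteins that act in groups of 3, either on the cell surface or after being cut off by a protease. Their receptors recruit TRAF proteins or, where they carry a death domain, TRADD and FADD, and from there activate NF-kappaB and MAP kinases or start apoptosis or necroptosis. Macrophages are a main source of TNF itself, and with other myeloid cells they also make the ligands BAFF and APRIL, which keep B cells and plasma cells alive.

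Of the 10 genes, 4 differed between the particles at an adjusted p-value under 0.10 in edgeR's quasi-likelihood test, and the other 6 did not pass. Tnfsf14 was higher after CNT-7, whereas Tnfsf13, Tnfsf13b and Tnfrsf1b were lower. The share of all genes tested that passed was 27.9%, with 13.9% higher and 14.0% lower after CNT-7. In the same 4 genes the rats of one particle lay entirely above or below the rats of the other, 1 with CNT-7 above and 3 with CNT-7 below. This was the case in 24.9% of all genes, 12.3% with CNT-7 above and 12.6% with CNT-7 below. The median log2 fold change (CNT-7 relative to CNT-T) was -0.22 in the 10 genes and 0.0083 in all genes tested. Only Tnfsf14, among the 10, differed by more than 2-fold. The plot of the levels by rat shows these 4 genes as the panels in which the colours do not overlap.

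**Figure D1:**
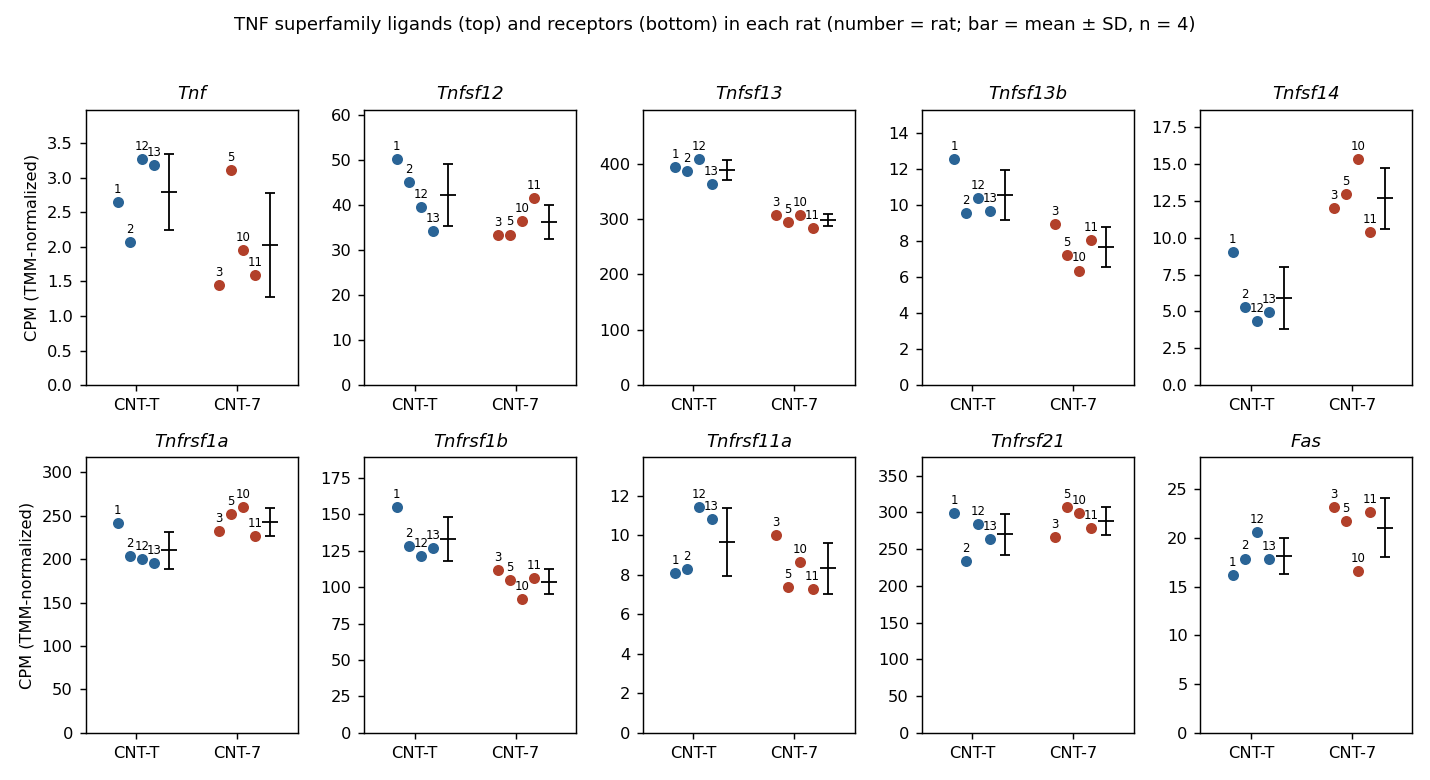
Level of each of the 10 TNF superfamily genes in each rat, in TMM-normalized counts per 1000000 (CPM) on axes that start at 0, with ligands in the top row and receptors in the bottom row. Points are rats labelled by number (blue CNT-T, red CNT-7) and bars are mean ± SD of 4 rats. The groups are separate for Tnfsf13, Tnfsf13b, Tnfsf14 and Tnfrsf1b, and CNT-T rat 1 (241.9 CPM) stands above the other CNT-T rats for Tnfrsf1a.

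The promoters of the 4 genes that differed are shown because 3 of them fell together and 1 rose. Each line gives the 250 bases before the RefSeq start of the gene on assembly GRCr8, read 5′ to 3′ on the gene's own strand, which is the minus strand in all 4. Capitals mark matches to 3 motifs, which were chosen with the values and sequences known. They are a kappaB-type motif (GGGNNNNNCC), an AP-1 motif (TGANTCA) and an IRF-type motif (GAAANNGAAA), searched on both strands, and overlapping matches are joined.
Tnfsf14: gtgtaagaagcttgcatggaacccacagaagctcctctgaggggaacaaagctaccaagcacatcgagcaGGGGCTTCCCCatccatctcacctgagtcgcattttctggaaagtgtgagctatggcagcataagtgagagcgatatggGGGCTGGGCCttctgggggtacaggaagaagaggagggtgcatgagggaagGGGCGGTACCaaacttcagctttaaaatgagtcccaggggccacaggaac
Tnfsf13: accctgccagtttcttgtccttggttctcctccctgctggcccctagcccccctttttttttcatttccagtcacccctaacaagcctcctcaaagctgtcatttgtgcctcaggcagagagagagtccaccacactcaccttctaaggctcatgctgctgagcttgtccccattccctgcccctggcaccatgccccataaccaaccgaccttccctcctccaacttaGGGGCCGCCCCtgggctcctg
Tnfsf13b: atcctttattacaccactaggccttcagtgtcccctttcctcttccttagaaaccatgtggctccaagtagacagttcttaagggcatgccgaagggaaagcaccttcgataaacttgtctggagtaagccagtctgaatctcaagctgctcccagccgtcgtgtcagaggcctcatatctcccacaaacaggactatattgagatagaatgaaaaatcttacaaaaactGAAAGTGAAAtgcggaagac
Tnfrsf1b: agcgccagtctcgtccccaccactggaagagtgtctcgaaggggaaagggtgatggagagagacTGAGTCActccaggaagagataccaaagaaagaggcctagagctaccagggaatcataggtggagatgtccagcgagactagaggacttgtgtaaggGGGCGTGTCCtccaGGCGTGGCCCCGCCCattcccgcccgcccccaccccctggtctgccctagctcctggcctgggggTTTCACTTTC
The Tnfsf14 promoter (chr9:2160087-2160336), that of the gene that rose, held kappaB-type matches in 3 places, at bases 180 to 170, 101 to 92 and 50 to 41 before the start. The Tnfsf13 promoter (chr10:54901816-54902065) held overlapping kappaB-type matches at bases 21 to 11. The Tnfrsf1b promoter (chr5:162387412-162387661) held kappaB-type matches at bases 89 to 80 and 75 to 61, and an AP-1 match at bases 186 to 180. The kappaB-type motif was present in 42.32% of all 33469 rat promoters of this length and in 5 of the 8 members whose promoter was found. Among these 5 were Tnf and Fas, which did not pass the test. Fas also held such matches in 3 places, at bases 242 to 233, 196 to 187 and 47 to 38 before its start. The AP-1 motif was present in 6.34% of all promoters and in 2 of the 8 members, Tnfrsf1b and Fas. The Tnfsf13b promoter (chr16:86194500-86194749) had no kappaB-type match and held an IRF-type match at bases 20 to 11. Tnfrsf1b carried the same 10 letters on the opposite strand at bases 10 to 1, directly before its start. The IRF-type motif was present in 3.406% of all promoters and in no other of the 8 members. A match of letters shows neither binding nor activity.

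Tnf (ENSRNOG00000055156), the ligand after which the family is named, was low in both groups, with between 44 and 99 counts per rat. Its level was 1.45, 3.12, 1.95 and 1.59 CPM in CNT-7 rats 3, 5, 10 and 11, and 2.64, 2.07, 3.26 and 3.19 CPM in CNT-T rats 1, 2, 12 and 13. All CNT-7 rats except rat 5 lay below every CNT-T rat, and rat 5 lay within the CNT-T range. The CNT-7 mean was 2.03 ± 0.757 CPM (SD, n = 4) against 2.79 ± 0.555 CPM (SD, n = 4) with CNT-T. The log2 fold change of -0.46 (standard error 0.28) did not pass edgeR's test (adjusted p = 0.284), and its unadjusted 95% interval reached from -1.08 to 0.16. Without CNT-7 rat 5, the log2 fold change was -0.75 (edgeR, adjusted p = 0.074). It did not pass without any other single rat, and without CNT-7 rat 3 it was -0.33 (edgeR, adjusted p = 0.505).

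TNF signals through 2 receptors, whose log2 fold changes had opposite signs and of which Tnfrsf1b alone passed the test. Tnfrsf1a (TNFR1, ENSRNOG00000031312), the death-domain receptor found on most cells, had 233, 252, 260.1 and 227 CPM in CNT-7 rats 3, 5, 10 and 11 and 241.9, 203, 200.4 and 195.5 CPM in CNT-T rats 1, 2, 12 and 13. CNT-T rat 1 lay among the CNT-7 rats, and the other CNT-T rats lay below all of them. The log2 fold change of 0.21 (standard error 0.087, interval 0.012 to 0.40) did not pass after adjustment over all genes (edgeR, adjusted p = 0.127). Without CNT-T rat 1, it was 0.28 (edgeR, adjusted p = 0.034). It did not pass without any other single rat, and without CNT-T rat 12 it was 0.18 (edgeR, adjusted p = 0.270).

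Tnfrsf1b (TNFR2, ENSRNOG00000016575), which lacks a death domain and binds TRAF proteins directly, fell. Its level was 111, 105, 91.8 and 106 CPM in CNT-7 rats 3, 5, 10 and 11 and 155, 128, 122 and 127 CPM in CNT-T rats 1, 2, 12 and 13. Every CNT-7 rat was below every CNT-T rat, with CNT-T rat 1 the highest and CNT-7 rat 10 the lowest. The CNT-7 mean was 103.6 ± 8.39 CPM (SD, n = 4) against 133 ± 14.9 CPM (SD, n = 4) with CNT-T. This is a log2 fold change of -0.36 (standard error 0.095, edgeR, adjusted p = 0.026).

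The number of Tnfrsf1b counts per Tnfrsf1a count within a rat, which library scaling does not touch, was 0.479, 0.416, 0.353 and 0.470 in CNT-7 rats 3, 5, 10 and 11. It was 0.640, 0.631, 0.607 and 0.648 in CNT-T rats 1, 2, 12 and 13. The groups did not overlap, and the CNT-T rats were closer to each other than the CNT-7 rats were (SD 0.0180 and 0.0580). CNT-T rat 1, which had the highest level of both receptors in its group, had a ratio like those of the other CNT-T rats. The mean log2 ratio was 0.57 lower after CNT-7, which is a description without a test because the pair was chosen with results known. As transcript length was not corrected, the ratio shows a difference between rats and not which receptor was more abundant.

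**Figure D2:**
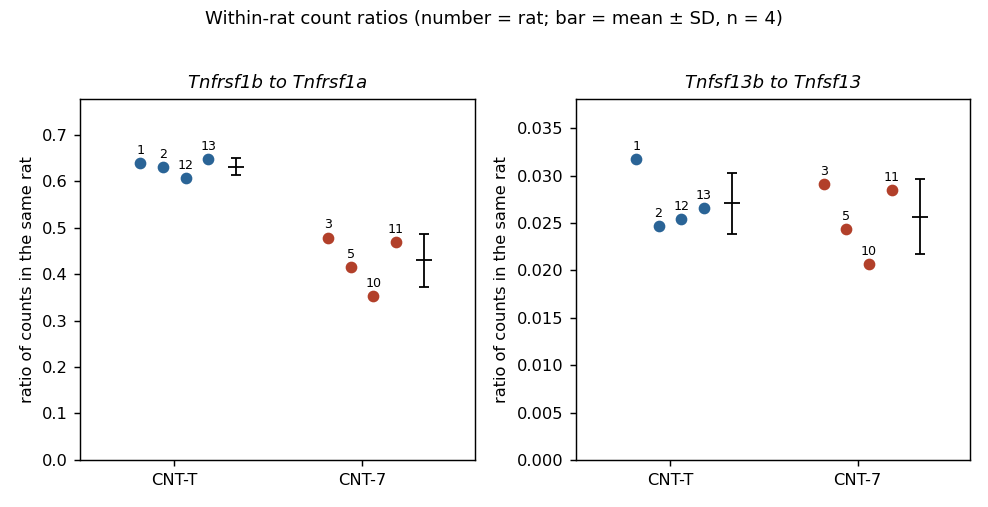
Ratio of the deposited counts of Tnfrsf1b to Tnfrsf1a (left) and of Tnfsf13b to Tnfsf13 (right) within each rat, on axes that start at 0, with rats as numbered points (blue CNT-T, red CNT-7) and mean ± SD of 4 rats as bars. The receptor ratio lies between 0.353 and 0.479 after CNT-7 and between 0.607 and 0.648 after CNT-T, whereas the ligand ratio overlaps between the groups.

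Tnfsf13 (ENSRNOG00000014171) and Tnfsf13b (ENSRNOG00000014464) encode APRIL and BAFF, ligands that share the receptors TACI and BCMA on B-lineage cells, and both fell. Tnfsf13 was the least variable of the 10 genes between rats of the same group (coefficient of variation 3.78% after CNT-7 and 4.71% after CNT-T). Its level was 306.6, 295, 308 and 284 CPM in CNT-7 rats 3, 5, 10 and 11 and 394, 388, 408 and 364 CPM in CNT-T rats 1, 2, 12 and 13. The gap between the highest CNT-7 rat and the lowest CNT-T rat was wider than the range within either group. The CNT-7 mean was 298 ± 11.3 CPM (SD, n = 4) against 388 ± 18.3 CPM (SD, n = 4) with CNT-T. The log2 fold change was -0.38 (standard error 0.067, edgeR, adjusted p = 0.0041), a fold of 0.768.

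Tnfsf13b had 8.93, 7.20, 6.36 and 8.07 CPM in CNT-7 rats 3, 5, 10 and 11 and 12.5, 9.55, 10.4 and 9.67 CPM in CNT-T rats 1, 2, 12 and 13. The groups did not overlap, but CNT-7 rat 3 came close to CNT-T rat 2. The CNT-7 mean was 7.64 ± 1.11 CPM (SD, n = 4) against 10.5 ± 1.38 CPM (SD, n = 4) with CNT-T, with a log2 fold change of -0.46 (standard error 0.14, edgeR, adjusted p = 0.046). The call was lost without CNT-7 rat 5, CNT-7 rat 10 or CNT-T rat 1, with adjusted p-values of 0.114, 0.102 and 0.106 in edgeR. The count of Tnfsf13b per count of Tnfsf13 was 0.0206 to 0.0291 in rats given CNT-7 against 0.0246 to 0.0318 in rats given CNT-T. These ranges overlapped, with a mean log2 difference of -0.08. The receptors of these ligands, Tnfrsf13b (TACI), Tnfrsf13c (BAFF receptor) and Tnfrsf17 (BCMA), had too few counts to be tested.

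Tnfsf14 (ENSRNOG00000047730) encodes LIGHT, which binds the lymphotoxin beta receptor and the receptor HVEM. It rose more than any other of the 10 genes. Its level was 12.02, 12.9, 15.3 and 10.4 CPM in CNT-7 rats 3, 5, 10 and 11 and 9.03, 5.29, 4.32 and 4.98 CPM in CNT-T rats 1, 2, 12 and 13. Every CNT-7 rat was above every CNT-T rat, and CNT-T rat 1 was closest to the CNT-7 rats. The CNT-7 mean was 12.7 ± 2.07 CPM (SD, n = 4) against 5.90 ± 2.12 CPM (SD, n = 4) with CNT-T. The log2 fold change was 1.10 (standard error 0.23, interval 0.58 to 1.62, edgeR, adjusted p = 0.0090), a fold of 2.14.

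In the RefSeq annotation of GRCr8 the gene next to Tnfsf14 is Cd70, which encodes the ligand of CD27. Cd70 was low and also rose, with 2.11 ± 0.710 CPM (SD, n = 4) in CNT-7 rats against 0.529 ± 0.136 CPM (SD, n = 4) in CNT-T rats (log2 fold change 1.99, standard error 0.32, edgeR, adjusted p = 0.0028). Tnfrsf8, which lies next to Tnfrsf1b in the same annotation, did not pass (log2 fold change 0.65, edgeR, adjusted p = 0.291). Its sign was opposite to that of Tnfrsf1b, and it was named after its values were seen. Of the LIGHT receptors, Ltbr was 77.2 to 85.4 CPM in CNT-7 rats against 69.4 to 75.5 CPM in CNT-T rats (log2 fold change 0.21, edgeR, adjusted p = 0.045). This call was lost without CNT-T rat 2 or CNT-T rat 12, with adjusted p-values of 0.109 and 0.123 in edgeR. Tnfrsf14, the gene of HVEM, had a log2 fold change of 1.77 that did not pass (edgeR, adjusted p = 0.119). Its level lay between 0.289 and 2.48 CPM with CNT-7 against 0.196 to 0.394 CPM with CNT-T, and it was named after its values were seen. CNT-7 rat 5 held the highest value, the other CNT-7 rats had 0.289 to 0.427 CPM, and without rat 5 the log2 fold change was 0.50 (edgeR, adjusted p = 0.473). It passed without CNT-7 rat 10 or CNT-7 rat 11, with adjusted p-values of 0.074 and 0.085 in edgeR, and in DESeq2 (adjusted p = 0.071).

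Lymphocytes and dendritic cells are also known to make LIGHT and CD70, and some of their markers were higher after CNT-7. The 7 T cell markers were all in the table, and 3 of the 4 tested, Cd4, Cd8a and Cd2, were higher. The macrophages had Cd4 at 914 CPM or more in every rat. Without Cd4 the T cell markers summed to 11.4 to 13.9 CPM in CNT-7 rats against 4.55 to 4.97 CPM in CNT-T rats. Of this sum, Cd8a alone made up 2.81 to 8.74 CPM in CNT-7 rats against 0.717 to 1.21 CPM in CNT-T rats. Lck, the other marker tested, did not pass, and 3 of the CNT-7 rats lay below every CNT-T rat for it. Cd3e was 0.290 to 2.11 CPM in CNT-7 rats against 0.0358 to 0.231 CPM in CNT-T rats, whereas Cd3d and Cd3g overlapped between the groups. Of the 6 dendritic cell markers, all in the table, 2 of the 3 tested were higher. The sum of all 6 overlapped between the groups, at 5.68 to 11.8 CPM in CNT-7 rats against 4.37 to 8.38 CPM in CNT-T rats. Zbtb46, the most abundant of them, did not pass (log2 fold change -0.22, edgeR, adjusted p = 0.653). Without Zbtb46 the sum was 1.27 to 5.96 CPM in CNT-7 rats against 0.456 to 0.593 CPM in CNT-T rats. The defining marker Flt3 was at 0 counts in at least 1 rat of each group. NK cell markers summed to 8.49 to 43.9 CPM in CNT-7 rats against 26.1 to 34.4 CPM in CNT-T rats. Without Klrk1, the most abundant of them, they summed to 3.61 to 5.33 CPM against 2.64 to 5.31 CPM. The part of these cells in the levels of Tnfsf14 and Cd70 was not tested.

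Tnfsf12 (ENSRNOG00000045670) encodes TWEAK and lies next to Tnfsf13 in the same annotation. Its level was 33.4, 33.5, 36.5 and 41.6 CPM in CNT-7 rats 3, 5, 10 and 11 and 50.2, 45.2, 39.5 and 34.3 CPM in CNT-T rats 1, 2, 12 and 13. The groups overlapped, since CNT-T rat 13 was below CNT-7 rats 10 and 11. The log2 fold change was -0.22 (standard error 0.12, interval -0.50 to 0.05, edgeR, adjusted p = 0.245). Without CNT-T rat 13, it was -0.31 (edgeR, adjusted p = 0.089). It did not pass without any other single rat, and without CNT-T rat 1 it was -0.13 (edgeR, adjusted p = 0.481). Tnfrsf12a, the TWEAK receptor Fn14, was 1.19 to 1.99 CPM in CNT-7 rats against 0.652 to 1.40 CPM in CNT-T rats, which did not pass the test (log2 fold change 0.40, edgeR, adjusted p = 0.372). Tnfrsf12a was named after its values were seen.

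Tnfrsf11a (ENSRNOG00000015615) encodes RANK, the receptor through which RANKL drives macrophage precursors to become osteoclasts. Its level was 10.0, 7.37, 8.67 and 7.31 CPM in CNT-7 rats 3, 5, 10 and 11 and 8.12, 8.31, 11.4 and 10.8 CPM in CNT-T rats 1, 2, 12 and 13. Only CNT-T rats 12 and 13 were above all CNT-7 rats. The log2 fold change was -0.21 (standard error 0.16, interval -0.57 to 0.15, edgeR, adjusted p = 0.400). Tnfsf11, which encodes RANKL, was not analysed here, and Tnfrsf11b, its decoy receptor osteoprotegerin, had too few counts to be tested.

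Fas (ENSRNOG00000019142) encodes the receptor of Fas ligand and can start apoptosis through FADD and caspase-8. Its level was 23.2, 21.7, 16.6 and 22.6 CPM in CNT-7 rats 3, 5, 10 and 11 and 16.2, 17.9, 20.6 and 17.8 CPM in CNT-T rats 1, 2, 12 and 13. CNT-7 rat 10 was among the lowest of all rats, and the other CNT-7 rats lay above every CNT-T rat. The log2 fold change was 0.21 (standard error 0.12, interval -0.06 to 0.49, edgeR, adjusted p = 0.256). Without CNT-7 rat 10, it was 0.31 (edgeR, adjusted p = 0.057). It did not pass without any other single rat, and without CNT-7 rat 3 it was 0.16 (edgeR, adjusted p = 0.467).

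Tnfrsf21 (ENSRNOG00000011517) encodes death receptor 6, another receptor with a death domain. Its level was 267, 307, 299.5 and 279 CPM in CNT-7 rats 3, 5, 10 and 11 and 299.2, 234, 284 and 263 CPM in CNT-T rats 1, 2, 12 and 13. The groups overlapped in part, since CNT-7 rats 5 and 10 lay above every CNT-T rat, rat 10 only narrowly, and CNT-T rats 2 and 13 lay below every CNT-7 rat. Of the 10 genes this had the log2 fold change nearest to 0, at 0.09 (standard error 0.090, interval -0.11 to 0.29, edgeR, adjusted p = 0.523).

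The highest CNT-T value was that of rat 1 in 6 of the 10 genes and that of rat 12 in the other 4. Over all genes tested, rat 1 was the highest of its group in 26.9% and rat 12 in 18.8%. Among the CNT-7 rats the highest values were spread over all 4 rats.

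The other members of the superfamily mostly had few counts in these macrophages. Of 13 other ligands, 5 could be tested, of which 1 was higher and 2 were lower after CNT-7, with a median log2 fold change of 0.58. The share that passed was 60% of those tested, against 27.9% of all genes tested. Besides Cd70, the ligand with a mean of at least 1 CPM that passed was Tnfsf10, which encodes TRAIL, an inducer of apoptosis. It was 1.95 to 8.51 CPM in CNT-7 rats against 12.9 to 16.3 CPM in CNT-T rats, without overlap. Its log2 fold change was -1.42 (standard error 0.34, edgeR, adjusted p = 0.015). Tnfsf8, the CD30 ligand, passed at under 1 CPM (log2 fold change -2.71, edgeR, adjusted p = 0.036), with overlap between the groups, and was named after its values were seen. All CNT-7 rats except rat 5 were below the level of 3 counts, without CNT-7 rat 5 the log2 fold change was -4.01 (edgeR, adjusted p = 0.017), and without CNT-T rat 1 or CNT-T rat 12 the gene fell below the filter. A further 7 ligands had at most 26 counts in any rat.

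Of 21 other receptors, 9 could be tested, of which 2 were higher and 1 was lower after CNT-7. Their median log2 fold change was 0.21, and 33.3% of those tested passed, against 27.9% of all genes tested. Tnfrsf26 was the one that fell, from a CNT-T mean of 9.14 CPM to a CNT-7 mean of 4.80 CPM (log2 fold change -0.93, standard error 0.13, edgeR, adjusted p = 0.0013). It belongs to a cluster of similar receptor genes, so the division of reads is uncertain. Tnfrsf18 (GITR), named after its values were seen, was the other receptor that rose besides Ltbr, at under 1 CPM on average (log2 fold change 1.54, edgeR, adjusted p = 0.0092). Cd40, the receptor by which T cells activate macrophages, overlapped between the groups and did not pass (edgeR, adjusted p = 0.465). Cd40 too was named after its values were seen. Another 11 receptors had at most 11 counts in any rat. The plot of fold changes sets these genes beside the 10 described here.

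**Figure D3:**
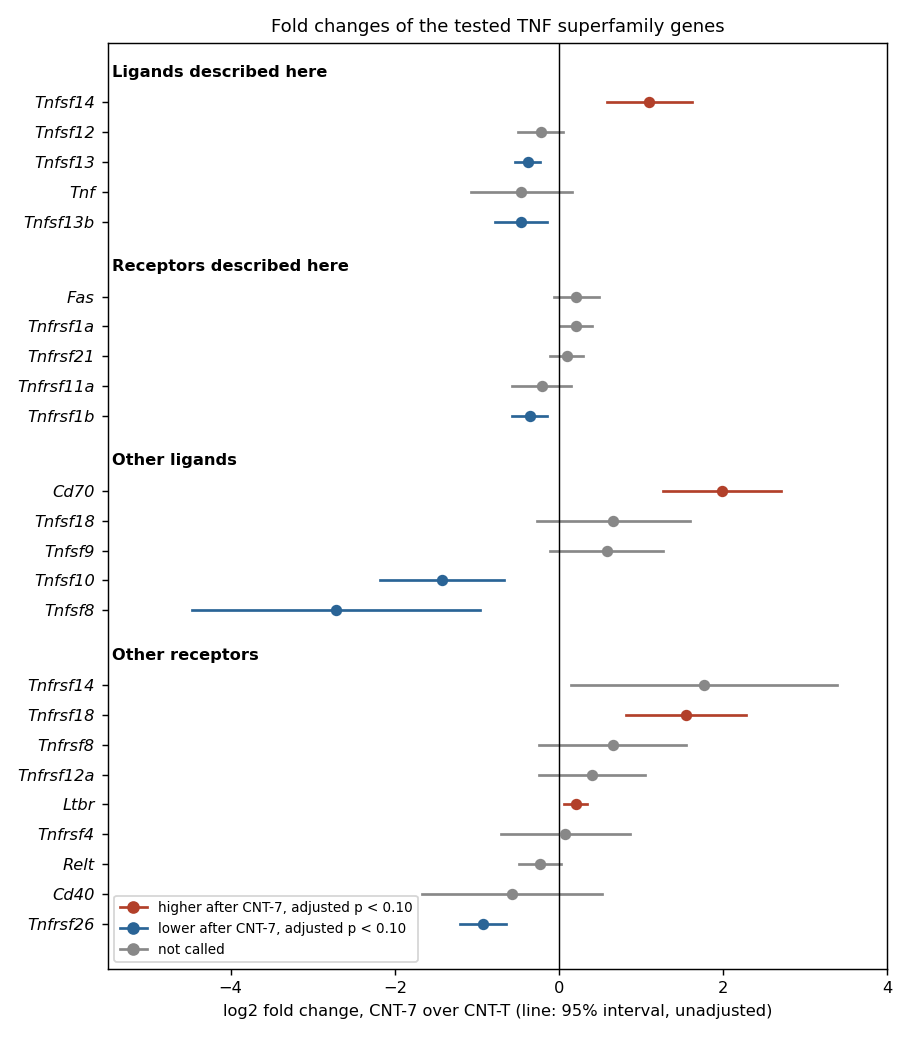
Log2 fold change (CNT-7 relative to CNT-T) for the 10 TNF superfamily genes and for the other ligands and receptors with enough counts to be tested, with lines for the unadjusted 95% interval and colour for the edgeR call (4 rats per group). Intervals are short for abundant genes such as Tnfsf13 and long for scarce ones such as Tnfsf8 and Tnfrsf14.

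Downstream of the receptors, all 27 genes of proximal signalling were tested, and 5 were higher and 1 lower after CNT-7. Their median log2 fold change was 0.05, and 22.2% of them passed, against 27.9% of all genes tested. Tnfaip3 (A20), a ubiquitin-editing inhibitor of NF-kappaB, was 14.9 to 22.0 CPM in CNT-7 rats against 7.12 to 9.59 CPM in CNT-T rats (log2 fold change 1.08, edgeR, adjusted p = 0.0010). Tnip1, which binds A20, had a log2 fold change of 0.75 (edgeR, adjusted p = 0.0024), and Birc3 (cIAP2), a ubiquitin ligase of the TNF receptor complex, had one of 0.91 (edgeR, adjusted p = 0.0044). The rats of the particles did not overlap in any of these 3 genes.

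Ripk3, the kinase of necroptosis, was the proximal gene that fell, with 67.2 to 127 CPM in CNT-7 rats against 132 to 151 CPM in CNT-T rats (log2 fold change -0.63, standard error 0.17, edgeR, adjusted p = 0.026). Fadd, the death-domain adaptor of Fas, and Traf1 passed narrowly, with log2 fold changes of 0.21 and 0.42 (edgeR, adjusted p = 0.062 and 0.074). When rats were omitted in turn, Fadd kept the call only without CNT-7 rat 11 or without CNT-T rat 2, and Traf1 only without CNT-7 rat 11 or without CNT-T rat 1, with adjusted p-values of up to 0.172 and 0.182 in edgeR. Traf1 also lost the call with no filter on low counts (edgeR, adjusted p = 0.106). Tradd and Ripk1, which assemble on TNFR1, had log2 fold changes of 0.06 and -0.06 (edgeR, adjusted p = 0.802 and 0.662), and Traf2 had one of -0.06 (edgeR, adjusted p = 0.712). These last 3 were named after their values were seen.

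Of 14 genes that release the ligands or control their mRNA, 12 were tested, and 4 were higher and 1 lower after CNT-7, with a median log2 fold change of 0.11. The share that passed was 41.7% of those tested, against 27.9% of all genes tested. Furin, the convertase that cleaves APRIL and BAFF, was 126 CPM with CNT-7 against 64.9 CPM with CNT-T on average (log2 fold change 0.96, standard error 0.096, edgeR, adjusted p = 0.00035). It rose while the transcripts of both its substrates fell. Adam10, a sheddase, had a log2 fold change of 0.37 (edgeR, adjusted p = 0.0084), whereas Adam17, the enzyme that releases TNF, had one of 0.13 (edgeR, adjusted p = 0.396) and was named after its values were seen. Litaf, described as a factor in TNF transcription, rose (log2 fold change 0.68, edgeR, adjusted p = 0.0088). Zfp36 (tristetraprolin), which promotes decay of Tnf mRNA, rose although the groups overlapped (log2 fold change 0.36, edgeR, adjusted p = 0.036). Its relative Zfp36l2 fell (log2 fold change -0.36, edgeR, adjusted p = 0.0079).

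Textbook TNF-induced genes were tested in 13 of 18 cases, and 7 were higher and 3 lower after CNT-7, with a median log2 fold change of 0.45. The share that passed was 76.9% of those tested, against 27.9% of all genes tested, in a list chosen with earlier results known. The other 5 genes had at most 25 counts in any rat. With no filter on low counts 12 genes of the list passed in edgeR, and 9 did with at least 10 counts required in every rat. Ccl2, a monocyte chemoattractant, rose from a CNT-T mean of 23.1 CPM to a CNT-7 mean of 109 CPM (log2 fold change 2.24, standard error 0.29, edgeR, adjusted p = 0.0010). Tnfaip2 had 337 CPM with CNT-7 against 112 CPM with CNT-T (log2 fold change 1.58, edgeR, adjusted p = 0.00094). The adhesion molecule Icam1, the mitochondrial superoxide dismutase Sod2 and the NF-kappaB subunit Nfkb2 had log2 fold changes of 0.66, 0.62 and 0.56 (edgeR, adjusted p = 0.0074, 0.016 and 0.026). Relb, with a log2 fold change of 0.52 (edgeR, adjusted p = 0.047), lost the call without CNT-7 rat 3, CNT-7 rat 5, CNT-T rat 2 or CNT-T rat 12, with adjusted p-values between 0.103 and 0.129.

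The TNF-induced genes that fell included Mmp9, a matrix protease, with 0.603 to 1.05 CPM in CNT-7 rats against 3.75 to 21.5 CPM in CNT-T rats (log2 fold change -3.50, standard error 0.61, edgeR, adjusted p = 0.0041). CNT-T rat 1 held the highest value, and without it the log2 fold change was -2.58 (edgeR, adjusted p = 0.0016). Neutrophils are also known to hold MMP9, and of their 8 markers, all in the table, S100a8 was the 1 of 5 tested that passed. It was 1.34 to 3.25 CPM in CNT-7 rats against 4.19 to 9.03 CPM in CNT-T rats (log2 fold change -1.46, edgeR, adjusted p = 0.016), with CNT-T rat 1 the highest as for Mmp9. The other tested markers did not pass, with log2 fold changes of 1.23 for S100a9, 1.26 for Cxcr2, 0.39 for Csf3r and -0.68 for Elane. Mpo was at 0 in all rats, and the part of these cells in the level of Mmp9 was not tested. Vcam1, at 0.665 CPM with CNT-7 against 1.59 CPM with CNT-T, passed at an adjusted p of 0.054 in edgeR and lost the call without CNT-7 rat 5, CNT-7 rat 10, CNT-T rat 12 or CNT-T rat 13, with adjusted p-values between 0.111 and 0.140. Bcl2a1, which rose (log2 fold change 0.45, edgeR, adjusted p = 0.071), and the chemokine Cxcl2, which fell (log2 fold change -1.40, edgeR, adjusted p = 0.074), were named after their values were seen. Bcl2a1 lost the call without CNT-7 rat 3, CNT-7 rat 11, CNT-T rat 1 or CNT-T rat 13 (edgeR, adjusted p up to 0.172). Cxcl2 lost it without CNT-7 rat 3, 10 or 11 or without CNT-T rat 2 or 13 (edgeR, adjusted p up to 0.186), and without CNT-T rat 13 its log2 fold change was -0.74. It also lost the call with a term for the range of the rat numbers (edgeR, adjusted p = 0.104). Nfkbia, the inhibitor that NF-kappaB itself induces, had a log2 fold change of 0.04 (edgeR, adjusted p = 0.878) and was also named afterwards. The list thus moved in both directions, as the plot of the pathway lists shows.

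**Figure D4:**
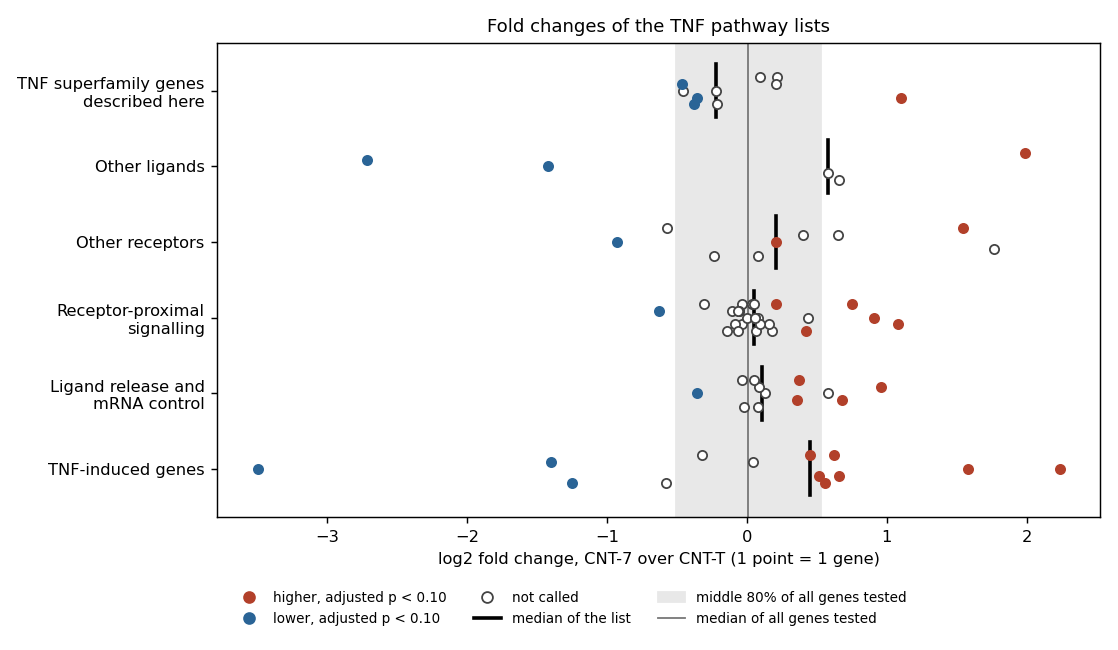
Log2 fold change (CNT-7 relative to CNT-T) for every tested gene of the 6 lists, 1 point per gene, coloured by the edgeR call, with the list median as a black bar and the middle 80% of all tested genes as a grey band. The 10 TNF superfamily genes have a median of -0.22 and all but Tnfsf14 lie within the band, whereas the TNF-induced genes have a median of 0.45 and reach from -3.50 to 2.24.

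All 8 libraries were of like depth, with 27195157 to 33732981 counts, and 3 counts corresponded to at most 0.109 CPM. All 8 macrophage markers were present. They summed to 15252 to 22225 CPM in CNT-7 rats against 23982 to 34123 CPM in CNT-T rats, and without Lyz2, which made up at least 79.97% of the sum, to between 2513 and 3055 CPM and between 3454 and 4110 CPM. Csf1r, Adgre1, Cd163 and Cd68 were lower after CNT-7 and Cd14 was higher, so that 4 of the 5 macrophage markers that passed moved in the same direction as Tnfsf13, Tnfsf13b and Tnfrsf1b. Their part in those falls was not tested. Markers of B cells other than Cd22 summed to at most 2.78 CPM, those of mast cells to at most 1.78 CPM and those of mesothelial cells to at most 0.838 CPM, and Upk3b, Wt1, Epx, Mpo and Gzmb were at 0 in all rats. Neutrophil markers summed to 33.8 to 63.0 CPM in CNT-7 rats against 26.2 to 68.4 CPM in CNT-T rats, and without Csf3r, at least 68.9% of the sum, to 2.93 to 9.21 CPM against 6.59 to 11.02 CPM. Eosinophil markers other than Siglec5 summed to 0.181 to 9.33 CPM in CNT-7 rats against 0.107 to 0.359 CPM in CNT-T rats. The upper end was set by CNT-7 rat 3, in which Ccr3 was 8.74 CPM, whereas the other CNT-7 rats had at most 0.637 CPM of Ccr3.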

How the data were processed

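RNA-seq libraries of sorted peritoneal macrophages from 8 rats, 4 per particle, were grouped by the sample labels. The authors quantified reads with Salmon against the Ensembl rat cDNA sequences (Rnor_6.0) in the ARMOR workflow and deposited estimated counts per gene, not normalized and already whole numbers. Salmon shares reads out among transcripts that resemble each other, so counts of closely related genes are less certain. All 8 columns were used, and 83 symbols repeated an earlier one. The table held 23487 genes.

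Counts were fitted in edgeR 4.0.16 (R 4.3.3) by its quasi-likelihood method, with TMM normalization, the filter of filterByExpr (minimum count 10, minimum total 15) and no covariate. Benjamini-Hochberg adjustment ran over the 12124 genes tested, with a threshold of 0.10. A positive log2 fold change means a higher level after CNT-7. Its standard error was derived from the F statistic, and intervals are unadjusted. CPM values use TMM-normalized totals and are not corrected for transcript length. Reads carried no molecular identifiers, so a floor of 3 counts covers counting error alone. No library was a copy of another.

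Members, lists and motifs were chosen with earlier results of these data known. All 10 members are given with their values. From each other list, genes called with a mean of at least 1 CPM over 8 rats are named, at most 8 per list by p-value. Marker sums are given for fixed lists. Promoters and gene neighbours are from RefSeq (GRCr8), which is not the authors' assembly, and were matched by symbol. Promoters were found for 8 of the 10 members. Scripts were tested on simulated counts. The alternatives were DESeq2 1.42.0, upper-quartile normalization, other filters and thresholds, a term for the range of the rat numbers, and each rat left out in turn. Tnfsf11, Tnfrsf10b, Rc3h1 and Cd79a were not analysed here.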

Additional observations from a re-analysis of the deposited data

Results flagged for a closer look

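In 4 of the 90 groups of 4 rats examined, 1 rat lay far from the other 3, as measured by Dixon's ratio of the gap to the whole range at its 95% critical value. Chance alone is expected to give 4.5 such groups. The rats were CNT-T rat 1 and CNT-7 rat 5, each in 2 genes. Tnfrsf1a was 241.9 CPM in CNT-T rat 1 (ratio 0.834) and between 195.5 and 203 CPM in the other CNT-T rats. Mmp9 was 21.5 CPM in the same rat (ratio 0.842) and between 3.75 and 6.55 CPM in the other CNT-T rats. Tnfsf8 was 0.335 CPM in CNT-7 rat 5 (ratio 0.869) and between 0.0328 and 0.0724 CPM in the other CNT-7 rats, which is below the level of 3 counts. Tnfrsf14 was 2.48 CPM in CNT-7 rat 5 (ratio 0.937) and between 0.289 and 0.427 CPM in the other CNT-7 rats.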

How the results depend on the processing

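Of all results, 2 changed sign, both near 0 and not called. Without 1 rat at a time, the log2 fold change was -0.048 to 0.13 for Tradd and -0.072 to 0.16 for Nfkbia. No member changed sign. Across the 15 alternatives, log2 fold changes stayed between 0.97 and 1.38 for Tnfsf14, between -0.41 and -0.36 for Tnfsf13, between -0.40 and -0.28 for Tnfrsf1b and between -0.54 and -0.37 for Tnfsf13b, and the highest adjusted p-values were 0.031, 0.017, 0.063 and 0.114. A required 2-fold change left 1006 of all 3383 genes called, 0 of the 3 members lower after CNT-7, and 1 of 3 other receptors, 1 of 6 proximal signalling genes, 0 of 5 release and mRNA control genes and 5 of 10 TNF-induced genes. This follows from the size of the folds and not from their errors. Without 1 rat at a time, 2578 to 3515 of all genes passed, with 1 to 2 members higher, 2 to 4 members lower and 4 to 5 members not overlapping. Members higher were 2 without CNT-7 rat 10, where Fas passed, or without CNT-T rat 1, where Tnfrsf1a passed. The lists then gave 2 to 4 other ligands, 2 to 4 other receptors, 4 to 7 proximal genes, 5 to 6 release genes and 7 to 10 TNF-induced genes. No paired analysis was possible because the groups share no rat number. Tnf had 44 to 99 counts per rat, and at this depth its interval of -1.08 to 0.16 includes falls as large as that of Tnfsf13b.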
